A study of Mus musculus with 18 samples.

Results

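Transcripts of 9 genes that are typical of macrophages and other myeloid cells (Csf1r, Lyz2, Apoe, C1qa, C1qb, C1qc, Tyrobp, Fcer1g and Mpeg1) were followed through libraries made from CD4+ T cells. The genes were taken by name, and all 9 were found among the 23219 features of the total RNA table. All 9 also passed a filter on low values, which asked for a level of 1 or more in 3 or more libraries and left 11320 features for testing. Csf1r, the receptor that macrophages need for survival, was higher in Hopx-high than in Hopx-low libraries, and Lyz2, the lysozyme of phagocytes, was higher in Hopx-high than in naive libraries. The other 7 genes did not pass the test in any comparison. In the small RNA libraries, the myeloid microRNA Mir223 was higher in Hopx-high libraries than in either other group.

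C57BL6 mice gave the CD4+ T cells, which were taken from spleen and lymph nodes. The mice had received an intraperitoneal injection of chimeric antibodies that bring antigen to dendritic cells 5 days earlier, and the labels give this treatment for every sample, the naive ones included. The groups were naive, Hopx-low and Hopx-high, named after Hopx, a small homeodomain protein. Each group had 3 total RNA and 3 small RNA libraries, 18 in all. The labels do not say how the cells were sorted, how pure they were, whether animals were pooled, or whether libraries of a group stem from different animals. The p-values therefore measure the spread between these libraries alone.

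Macrophages and monocytes arise from bone marrow or embryonic precursors, share the spleen and lymph nodes with T cells, and clear dead cells and debris there. They sense the growth factors CSF1 and IL-34 through Csf1r, digest bacteria with lysozyme, secrete the complement protein C1q and the lipid carrier apolipoprotein E, and signal through small adaptor proteins that carry the activation motif called ITAM. CD4+ T cells are not known for these products and signal through the T-cell receptor, which carries ITAMs of its own.

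Levels are aligned bases over a gene per megabase of sequence covered in a library, with group values as mean ± SD (n = 3). They are not divided by transcript length, so they compare libraries and not genes. Differences are in log2(level + 1) with their standard error, and a gene was called at an adjusted p below 0.05 (limma, Benjamini-Hochberg over all 11320 features). Total RNA libraries held 105 to 329 megabases, and a read of about 108 to 115 bases was worth a level of 0.340 to 1.06, so 3 reads came to a level of 1.02 to 3.18. Hopx itself was 0.971 ± 0.894 in naive libraries, 6.995 ± 0.948 in Hopx-low and 27.8 ± 5.77 in Hopx-high ones, in the order of the labels. Hopx-low replicate 1 and Hopx-high replicate 3 stood apart: they were the shallowest (105 and 110 megabases), and the mitochondrial leucyl-tRNA synthetase gene Lars2 took 17.98% and 18.9% of their bases against 0.525% to 6.55% elsewhere. Over all features, 952 were called higher and 1714 lower between Hopx-high and naive, but 1418 and 1134 with upper-quartile scaling and 1337 and 1306 with quantile normalization; for Hopx-high against Hopx-low, 138 higher and 104 lower became 64 and 7 with replicates 1 and 2 alone. Xist was covered in replicate 3 of each group and in no other library. The tested CD4 T-cell genes were all covered, with a summed level over 10 genes such as Cd4, Cd3e and Lck of 5967 to 8285 in the 9 libraries. In bulk RNA, fewer cells of a type and less RNA per cell cannot be told apart.

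The 9 genes together made up a very small part of each library. Their summed level was 35.5, 69.7 and 59.4 in naive replicates 1 to 3, 24.4, 69.8 and 33.3 in Hopx-low replicates, and 103, 181 and 101.2 in Hopx-high replicates. All 3 Hopx-high libraries thus lay above all 6 others, while naive and Hopx-low libraries overlapped. In shares, the sum ran from 0.00244% of bases in Hopx-low replicate 1, where about 23.1 reads covered 7 of the 9 genes, to 0.0181% in Hopx-high replicate 2, with about 425 reads. Hopx-high replicate 2 held the highest value of 7 of the 9 genes. The means were 54.9 ± 17.6 in naive libraries, 42.5 ± 24.1 in Hopx-low and 128 ± 45.8 in Hopx-high ones, given as a description with no test because the genes were chosen with earlier results known.

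**Figure D1:**
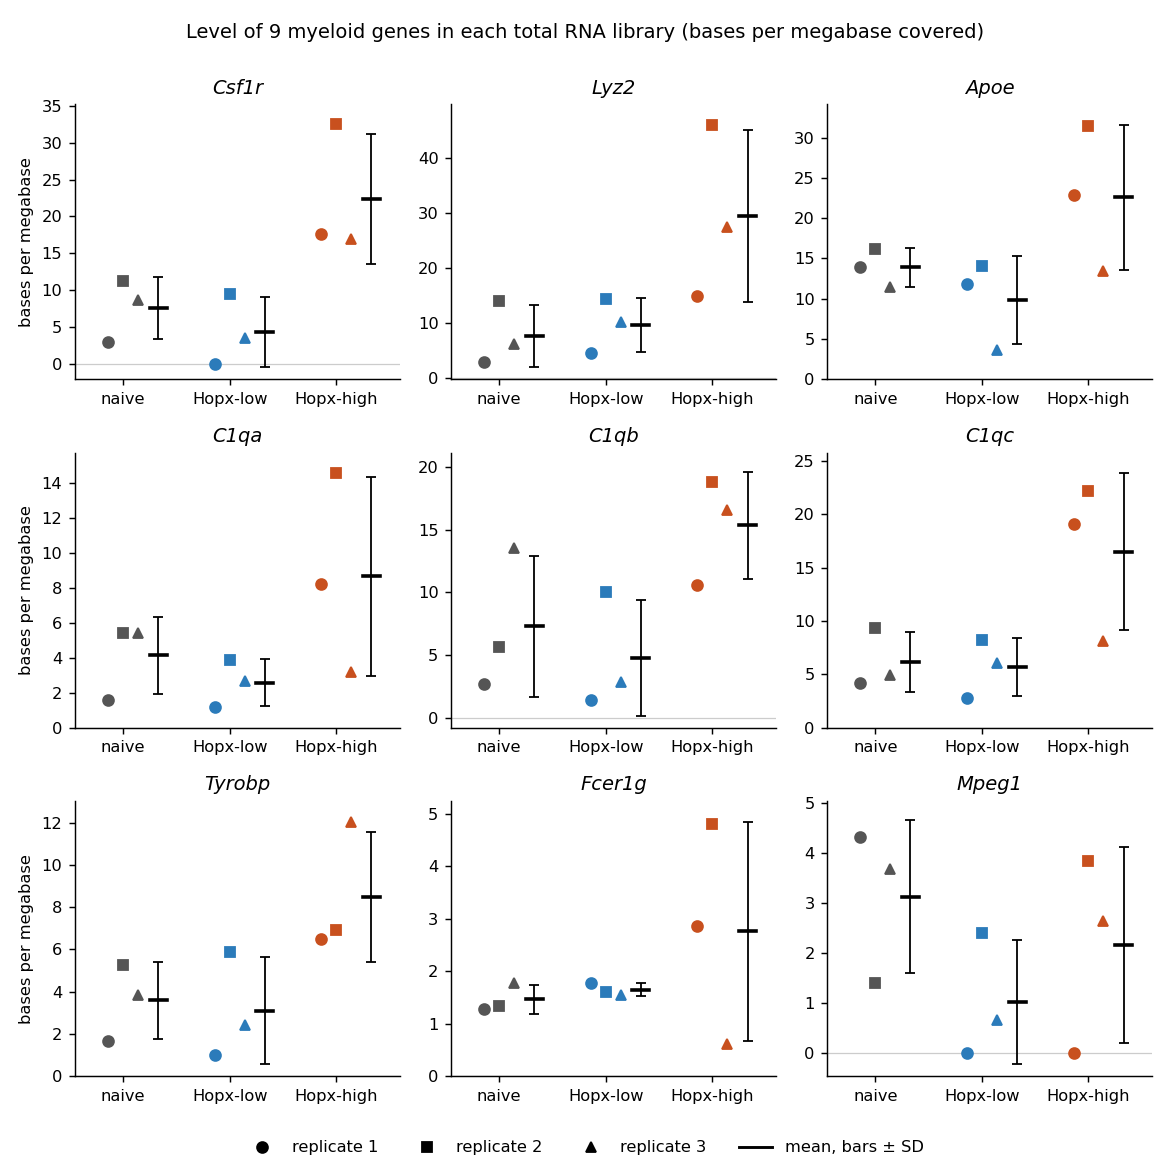
Level in each total RNA library (points; bases per megabase covered) of the 9 genes, by group, with the mean and SD of 3 libraries. Csf1r, Lyz2 and Tyrobp have all 3 Hopx-high points above all naive points, and the lowest Hopx-high point of Fcer1g, at 0.620, lies below every other point of that gene.

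Between Hopx-high and naive libraries, 1 of the 9 genes was called, and it was higher. Over all tested features 23.6% were called and 8.41% were called higher. An unadjusted p below 0.05 was reached by 5 of the 9, against 37.3% of features. For 3 of the 9 (Csf1r, Lyz2 and Tyrobp) every Hopx-high library lay above every naive library, against 13.2% of all features. Differences were above 0 for 8 of the 9, against 33.2% of features, and reached 1 or more for 5, against 8.76%. Their median difference was 1.09, and that of all features was -0.29. Between Hopx-high and Hopx-low libraries, 1 of 9 was called, again higher, against 2.14% of all features called and 1.22% called higher. An unadjusted p below 0.05 was reached by 7 of the 9, against 13.3% of features. Here 4 of the 9 (Csf1r, Lyz2, C1qb and Tyrobp) had no overlap between groups in the upward direction, against 6.52% of features. All 9 differences were above 0 (39.1% of features), 7 reached 1 or more (4.26%), and the median was 1.35 against -0.10. These comparisons share the Hopx-high libraries. Without both libraries rich in Lars2, the median differences of the 9 genes were 1.09 from naive and 1.22 from Hopx-low.

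Between Hopx-low and naive libraries, 0 of the 9 genes were called by limma, where 8.39% of all features were called in either direction. None of the 9 reached an unadjusted p below 0.05 (0 of 9, against 23.1% of features), and the groups overlapped for every gene, where 29.2% of features had no overlap. Differences ran from -1.13 ± 0.60 for Mpeg1 (adjusted p = 0.27) to 0.40 ± 0.50 for Lyz2 (adjusted p = 0.68), with a median of -0.48 against -0.16 over all features.

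**Figure D2:**
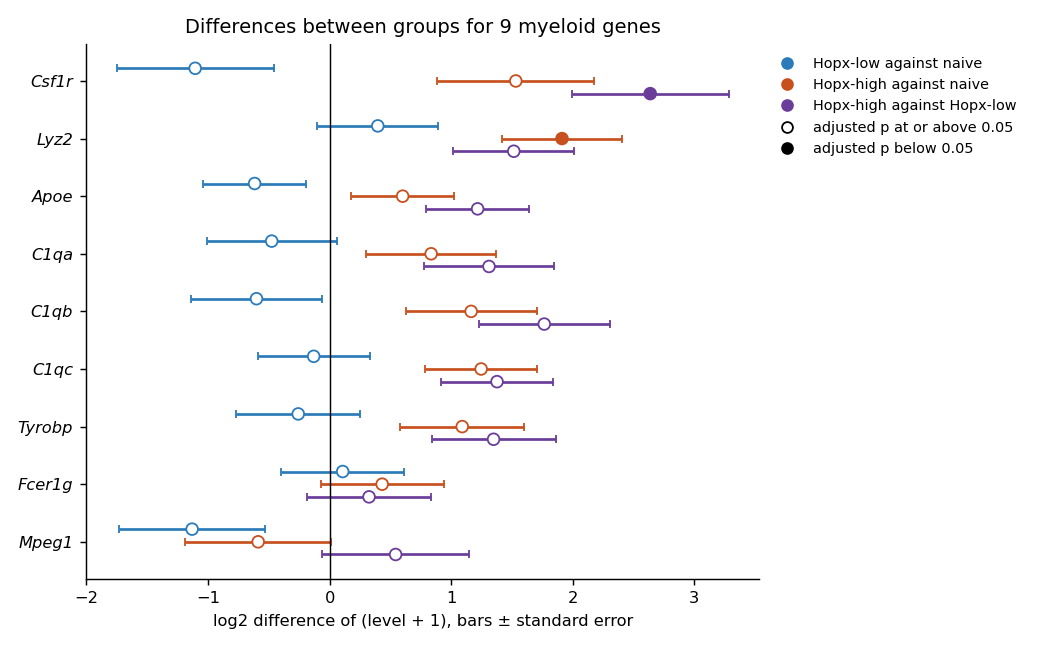
Difference in log2(level + 1) of each of the 9 genes in the 3 comparisons (points, with bars for the standard error of the limma fit and a line at 0; filled points are called). Lyz2 between Hopx-high and naive (1.91) and Csf1r between Hopx-high and Hopx-low (2.64) are the called differences.

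Csf1r encodes the receptor tyrosine kinase for CSF1 and IL-34 (chromosome 18, 61105572 to 61131139, GRCm38.p6). Its level was 2.92, 11.2 and 8.65 in naive replicates 1 to 3, 0, 9.45 and 3.43 in Hopx-low replicates, and 17.6, 32.6 and 16.9 in Hopx-high replicates. The lowest Hopx-high library lay above the highest library of the other groups, and Hopx-low replicate 1, the shallowest library, had no read of the gene, where 3 reads would have given a level of 3.18. The mean was 5.20 times as high in Hopx-high as in Hopx-low libraries (22.3 ± 8.88 against 4.29 ± 4.79), a log2 difference of 2.64 ± 0.65 (adjusted p = 0.037), with 3 features of the 11320 showing a larger one. That call rested on most of its libraries: the adjusted p was 0.082 without Hopx-low replicate 1 (log2 difference 1.72), 0.10 without Hopx-low replicate 3, 0.082, 0.17 and 0.098 without Hopx-high replicates 1, 2 and 3, and 0.14 without both Lars2-rich libraries. With replicates 1 and 2 alone, the libraries without Xist, it was 2.95 (adjusted p = 0.27). Against naive libraries (7.59 ± 4.23) the difference was 1.53 ± 0.65 (adjusted p = 0.093), which passed the threshold without Hopx-low replicate 1 (adjusted p = 0.018) or replicate 2 (0.046). Without naive replicate 1 the difference from naive was 1.04 (adjusted p = 0.33).

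The ligands of Csf1r and its receptor relatives were mostly near the floor. Of 10 such genes, 3 were tested. Of these 1, the stem cell factor receptor Kit, was called higher in Hopx-high than in naive libraries, as were 8.41% of all features. Kit was 0.283 ± 0.490 in naive libraries, 2.44 ± 0.793 in Hopx-low and 5.27 ± 0.488 in Hopx-high ones (log2 difference 2.35 ± 0.47 against naive, adjusted p = 0.00087). Csf2ra, the GM-CSF receptor alpha chain, stood at 3.13, 5.18 and 5.67 in the same order without a call. Csf1 itself had mean levels of 0.393 to 0.815 and reached at most 1.83 in a library, and Pdgfra was at 0 in all libraries.

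C1q, the recognition molecule of the classical complement pathway, is built from 3 chains made by macrophages. C1qb, C1qc and C1qa lie next to each other on chromosome 4 within 18.7 kb (136880126 to 136898844, GRCm38.p6). The promoters of C1qb and C1qc are shown with that of Lyz2 because PU.1, an ETS factor whose sites hold the core GGAA, is known as a regulator of many macrophage genes. RefSeq windows of the 250 bases before the start were present for 6 of the 9 genes, 8 windows in all. They were searched on both strands for GAGGAA and GGAAGT, which are ETS-type letter runs and can overlap (as in ACTTCCTC). Capitals mark the matches, written as they read on the gene's strand.
C1qb, chr4:136886201-136886450, minus strand: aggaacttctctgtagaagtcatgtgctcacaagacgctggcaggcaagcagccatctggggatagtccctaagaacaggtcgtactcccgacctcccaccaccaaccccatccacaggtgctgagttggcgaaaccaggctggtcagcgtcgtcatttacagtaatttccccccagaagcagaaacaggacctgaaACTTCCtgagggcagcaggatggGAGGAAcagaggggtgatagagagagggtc
C1qc, chr4:136892915-136893164, minus strand: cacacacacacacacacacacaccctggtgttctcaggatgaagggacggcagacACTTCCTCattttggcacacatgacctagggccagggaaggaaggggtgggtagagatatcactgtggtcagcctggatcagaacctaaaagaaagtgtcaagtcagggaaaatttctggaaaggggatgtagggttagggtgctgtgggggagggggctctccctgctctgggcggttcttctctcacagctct
Lyz2, chr10:117282273-117282522, minus strand: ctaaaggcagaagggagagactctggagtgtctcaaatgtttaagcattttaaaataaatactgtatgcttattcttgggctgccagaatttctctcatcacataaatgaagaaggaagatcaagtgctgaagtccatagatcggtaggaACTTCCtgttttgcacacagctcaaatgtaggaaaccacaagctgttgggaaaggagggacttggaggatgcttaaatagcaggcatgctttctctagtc
C1qb and C1qc each held both runs, which 6.26% of all 32851 promoter windows of this length did. Lyz2 held GGAAGT, found in 19.7% of windows, 100 bases before its start. GAGGAA was found in 23.3% of windows and in 2 of the 3 Apoe windows, and neither run was in the Fcer1g or Mpeg1 window. A match is a run of letters and does not show binding.

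The 3 C1q chains each had their highest level in Hopx-high replicate 2. C1qb was 2.72, 5.63 and 13.6 in naive replicates 1 to 3, 1.44, 10.01 and 2.84 in Hopx-low replicates, and 10.6, 18.8 and 16.6 in Hopx-high replicates. Its Hopx-high libraries lay above all Hopx-low libraries, though not above naive replicate 3. The difference was 1.77 ± 0.54 against Hopx-low (adjusted p = 0.11) and 1.16 ± 0.54 against naive (adjusted p = 0.12). It passed the threshold without Hopx-low replicate 2 in the former (adjusted p = 0.027) and without naive replicate 3 in the latter (0.049). With other single libraries left out, the adjusted p reached 0.34 against Hopx-low and 0.44 against naive.

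C1qc was 4.21, 9.37 and 4.93 in naive, 2.78, 8.19 and 6.03 in Hopx-low, and 19.1, 22.2 and 8.18 in Hopx-high libraries. Hopx-high replicate 3 kept the groups from separating, lying just under Hopx-low replicate 2. C1qc differed by 1.25 ± 0.46 from naive (adjusted p = 0.053) and by 1.38 ± 0.46 from Hopx-low (adjusted p = 0.15). The former was past the threshold without naive replicate 2 (adjusted p = 0.038), Hopx-low replicate 1 (0.033) or Hopx-high replicate 3 (0.025), and without both Lars2-rich libraries (log2 difference 1.66, adjusted p = 0.0093). With other single libraries left out, the adjusted p against naive reached 0.19.

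C1qa was 1.57, 5.42 and 5.43 in naive, 1.20, 3.89 and 2.66 in Hopx-low, and 8.23, 14.6 and 3.19 in Hopx-high libraries. Its groups overlapped in every comparison, and Hopx-high replicate 3 lay within the range of both other groups. The differences were 0.84 ± 0.54 against naive (adjusted p = 0.26) and 1.31 ± 0.54 against Hopx-low (adjusted p = 0.27). Summed over the 3 chains, C1q was 17.6 ± 8.09 in naive libraries, 13.0 ± 8.43 in Hopx-low and 40.5 ± 13.98 in Hopx-high ones.

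Few other genes of the complement pathway were covered. Of 20 genes, 6 were tested and 8, among them the C1q-associated proteases C1ra, C1rb and C1s, were at 0 in every library. Between Hopx-high and naive libraries, 1 was called higher and 2 lower, against 8.41% and 15.1% of all features. Of the 2 called lower, Cr1l lost its call with upper-quartile scaling. C3, the central component, was 0.782 ± 0.361 in naive and 4.70 ± 1.41 in Hopx-high libraries (1.67 ± 0.48, adjusted p = 0.015), a call lost without naive replicate 1 or Hopx-high replicate 3. Cd55, which protects cells from complement, fell from 21.3 ± 6.42 in naive to 4.65 ± 0.838 in Hopx-low and 4.13 ± 1.10 in Hopx-high libraries (-1.95 ± 0.40, adjusted p = 0.0023, and -2.10 ± 0.40, adjusted p = 0.00049).

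Lyz2 encodes the lysozyme of macrophages and neutrophils, which cuts bacterial cell walls (chromosome 10, 117277541 to 117282272). Its level was 2.83, 13.9 and 6.07 in naive replicates 1 to 3, 4.42, 14.3 and 10.08 in Hopx-low replicates, and 14.9, 46.2 and 27.6 in Hopx-high replicates. All Hopx-high libraries were above all others, with Hopx-high replicate 1 close to the highest of the remaining libraries. The mean was 3.89 times as high in Hopx-high (29.6 ± 15.7) as in naive libraries (7.60 ± 5.70), a log2 difference of 1.91 ± 0.50 (adjusted p = 0.0079). Without naive replicate 1 it was 1.44 (adjusted p = 0.061), and leaving out any other single library kept the call. With replicates 1 and 2 alone it was 1.86 (adjusted p = 0.099). Against Hopx-low libraries (9.60 ± 4.96) the difference was 1.52 ± 0.50 (adjusted p = 0.14). Lyz1 is a close copy of Lyz2, and how reads were split between them is not given in the sources used here. It was at mean levels of 0.107, 0.241 and 1.83 in naive, Hopx-low and Hopx-high libraries, the last between 1.11 and 2.26.

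Mpeg1 encodes perforin-2, a pore-forming protein that macrophages use against ingested bacteria (chromosome 19, 12460770 to 12465285). Its level was 4.32, 1.40 and 3.67 in naive, 0, 2.40 and 0.670 in Hopx-low, and 0, 3.83 and 2.63 in Hopx-high libraries. A library at 0 occurred in both Hopx groups, and about 10.4 reads was the most in any library. The mean of Hopx-high libraries was 0.689 times that of naive libraries, with a difference of -0.59 ± 0.60 (adjusted p = 0.50), and the difference from Hopx-low was 0.54 ± 0.60 (adjusted p = 0.78).

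Apoe encodes apolipoprotein E, which macrophages release with cholesterol (chromosome 7, 19696244 to 19701310). It was 13.98, 16.2 and 11.5 in naive replicates 1 to 3, 11.8, 14.1 and 3.63 in Hopx-low replicates, and 22.9, 31.4 and 13.5 in Hopx-high replicates. Hopx-high replicates 1 and 2 were above every naive and Hopx-low library, and replicate 3 lay among them. The differences were 0.60 ± 0.42 against naive (adjusted p = 0.31) and 1.22 ± 0.42 against Hopx-low (adjusted p = 0.18).

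Other genes of lipoprotein uptake and cholesterol efflux moved in both directions. Of 15 genes, 10 were tested. Between Hopx-high and naive libraries 2 were called higher and 4 lower, against 8.41% and 15.1% of all features. Of the 4 called lower, Abcg1 and Nr1h2 lost their calls with upper-quartile scaling. Mylip, a ubiquitin ligase of cholesterol uptake, fell from 91.6 ± 5.71 in naive to 38.9 ± 13.8 in Hopx-high libraries (-1.27 ± 0.25, adjusted p = 0.00086). The sorting receptor Sorl1 rose from 84.3 ± 8.47 to 151 ± 25.9 (0.82 ± 0.22, adjusted p = 0.0091). The neighbours of Apoe, Apoc1, Apoc2 and Apoc4, were at mean levels of 0 to 0.136.

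Tyrobp and Fcer1g are ITAM adaptors: Tyrobp (DAP12) couples receptors such as the TREM family, and Fcer1g is the common gamma chain of Fc receptors. Tyrobp (chromosome 7, 30413782 to 30417582) was 1.65, 5.26 and 3.82 in naive, 0.982, 5.89 and 2.43 in Hopx-low, and 6.50, 6.91 and 12.04 in Hopx-high libraries. Every Hopx-high library was above all 6 others, by a small margin over Hopx-low replicate 2. The differences were 1.09 ± 0.51 against naive (adjusted p = 0.12) and 1.35 ± 0.51 against Hopx-low (adjusted p = 0.22).

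Fcer1g (chromosome 1, 171229572 to 171234349) was 1.28, 1.34 and 1.78 in naive, 1.78, 1.61 and 1.55 in Hopx-low, and 2.86, 4.80 and 0.620 in Hopx-high libraries. The last value stood on less than 1 read's worth of bases, and the other Hopx-high libraries were the highest of the 9. The differences were 0.43 ± 0.51 against naive (adjusted p = 0.56) and 0.32 ± 0.51 against Hopx-low (adjusted p = 0.86).

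A list of 22 genes held receptors, a related adaptor and signalling proteins, not all of which are known to pair with Tyrobp or Fcer1g. Of these genes, 9 were tested, and 0 were called higher in any comparison by limma. Between Hopx-high and naive libraries, 4 of the 9 were called lower, against 15.1% of all features. With upper-quartile scaling 3 of these calls were lost, those of Hcst, Inpp5d and Card9, and that of Treml2 was kept. Trem1, Trem3 and the high-affinity IgE receptor chain Fcer1a were at 0 in every library. Treml2, a TREM-like receptor also present on T cells, fell from 190 ± 29.2 in naive to 84.6 ± 26.6 in Hopx-low (-1.20 ± 0.24, adjusted p = 0.0020) and 33.4 ± 4.48 in Hopx-high libraries (-2.47 ± 0.24, adjusted p = 6.3e-08). Hcst (DAP10), an adaptor that T cells use, fell from 94.2 ± 29.8 in naive to 49.6 ± 17.0 in Hopx-high libraries (-0.92 ± 0.28, adjusted p = 0.021), a call lost with upper-quartile scaling (adjusted p = 0.15) and without naive replicate 2 or Hopx-high replicates 2 or 3. Zap70, the T-cell kinase that binds ITAMs, was 818 ± 109 in naive and 994 ± 60.6 in Hopx-high libraries and was not called (adjusted p = 0.17). Syk, the related kinase of myeloid and B cells, was outside the rule for named genes and was chosen after its values were seen: it was 8.89 ± 3.71, 4.40 ± 1.05 and 16.8 ± 9.15 in naive, Hopx-low and Hopx-high libraries, with adjusted p = 0.25 against naive and 0.085 against Hopx-low.

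The 9 genes differed in how closely each followed the others across the 9 libraries. As a description over libraries that share depth and group, Pearson's r between a gene and the summed level of the remaining 8 was 0.94 for Csf1r, 0.87 for each C1q chain, 0.86 for Tyrobp and 0.80 for Lyz2. It was 0.59 for Apoe, 0.44 for Fcer1g and 0.28 for Mpeg1. Among features outside the 9, the closest by r with log2 of 1 plus their summed level were Ift46 and Cnih (0.94 each), Eif1b and Scd1 (0.93 each), and Mb21d1, St14, Sirpa and Pik3r2 (0.92 each). Sirpa, the myeloid receptor for the "do not eat me" signal CD47, was 4.26 ± 2.12, 3.41 ± 3.17 and 13.98 ± 4.37 in naive, Hopx-low and Hopx-high libraries. St14, the membrane protease matriptase, was 1.51 ± 1.19, 1.45 ± 1.45 and 8.08 ± 2.84 in the same order. Both were picked for this pattern, so their values are a description with no test.

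The other monocyte and macrophage markers gave few calls, although most tested ones had a difference above 0 in Hopx-high libraries. Of 37 such genes, 19 were tested and 2, Vsig4 and Trem2, were at 0 in every library. Their summed level was 176 to 245 in naive libraries, 156 to 196 in Hopx-low and 234 to 271 in Hopx-high ones, most of it the protease cathepsin S (Ctss), which T cells may also express, at 117, 111 and 112. Between Hopx-high and naive libraries 2 of the 19 were called higher and 1 lower, against 8.41% and 15.1% of all features. Differences were above 0 for 15 of the 19 (33.2% of features), with a median of 0.57 against -0.29. For 7, all Hopx-high libraries lay above all naive ones (13.2% of features), and for 1 all lay below. The receptor kinase Axl rose from 8.60 ± 0.637 to 21.3 ± 7.48 (1.16 ± 0.36, adjusted p = 0.023) and galectin-3 (Lgals3) from 1.16 ± 0.337 to 5.40 ± 2.51 (1.50 ± 0.47, adjusted p = 0.025). Axl lost its call without naive replicate 1 or 2 or Hopx-high replicate 1 or 2, and Lgals3 without naive replicate 1 or 3 or Hopx-high replicate 3. Ms4a6c fell from 8.01 ± 1.90 to 1.16 ± 1.22 (-2.21 ± 0.58, adjusted p = 0.0079), a call lost without Hopx-high replicate 3. Between Hopx-high and Hopx-low libraries 0 of the 19 were called by limma, against 2.14% of features, and 5 had an unadjusted p below 0.05 (13.3%). Differences were above 0 for 18 (39.1% of features), with a median of 0.84 against -0.10. For 6 the groups had no overlap in the upward direction (6.52% of features). Lyz1, which is among the 19, passed the filter only through its Hopx-high libraries. Spi1 (PU.1) was outside the rule for named genes and chosen after its values were seen. It was 3.11 ± 2.21, 1.50 ± 0.496 and 3.87 ± 3.58 in naive, Hopx-low and Hopx-high libraries (0.20 ± 0.57 against naive, adjusted p = 0.82).

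The B-cell markers Cd79b and Cd22 were called higher in Hopx-high libraries than in either other group. Some MHC class II genes of antigen-presenting cells were called higher in Hopx-high than in naive libraries. The 12 B-cell markers summed to 12.1 to 55.2 in naive libraries, 10.4 to 20.5 in Hopx-low and 62.7 to 97.6 in Hopx-high ones. Of 9 tested, 3 were called higher against naive (8.41% of all features) and 3 against Hopx-low (1.22%). None of the 12 was at 0 in all libraries. Cd79b, part of the B-cell receptor, was 7.34 ± 5.96, 4.16 ± 0.829 and 20.6 ± 5.03 in naive, Hopx-low and Hopx-high libraries (1.57 ± 0.45, adjusted p = 0.014 against naive, and 2.05 ± 0.45, adjusted p = 0.013 against Hopx-low). Both calls of Cd79b were lost without Hopx-high replicate 3, and that against naive also without naive replicate 1 or 3. The B-cell lectin Cd22 was 3.62 ± 3.24, 4.14 ± 3.24 and 20.8 ± 9.17 (2.38 ± 0.58, adjusted p = 0.0051 against naive), and no single library left out ended that call. Against Hopx-low the Cd22 difference was 2.33 ± 0.58 (adjusted p = 0.035). That call was lost without Hopx-low replicate 1 or any single Hopx-high library.

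The 10 MHC class II genes summed to 117 to 359, 280 to 476 and 456 to 776 in naive, Hopx-low and Hopx-high libraries. Between Hopx-high and naive 3 were called higher, against 8.41% of all features. Between Hopx-high and Hopx-low 0 of the 10 were called by limma, although 9 differences were above 0 (39.1% of features). H2-Aa was 30.3 ± 24.6, 26.5 ± 8.30 and 66.6 ± 36.4 in naive, Hopx-low and Hopx-high libraries and was not called against naive (adjusted p = 0.22). Cd74, the invariant chain, rose from 42.3 ± 27.7 in naive to 198 ± 55.6 in Hopx-high libraries (2.36 ± 0.41, adjusted p = 0.00091). H2-Oa rose in Hopx-low (119 ± 29.7) as in Hopx-high libraries (154 ± 17.2) from 13.4 ± 6.85 in naive ones (3.13 ± 0.28, adjusted p = 3.8e-08, and 3.52 ± 0.28, adjusted p = 2.5e-09). Between Hopx-high and Hopx-low it was not called (0.39 ± 0.28, adjusted p = 0.62). The part of B cells or other antigen-presenting cells in the values of the 9 genes was not tested.

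Markers of other cells gave few calls. The neutrophil genes S100a8, Elane, Mpo, Lcn2, Cxcr2 and Mmp8 were at 0 in every library, and 12 neutrophil markers summed to 0.620 to 10.3 in naive libraries, 0 to 3.76 in Hopx-low and 1.86 to 3.80 in Hopx-high ones. The 13 dendritic cell markers summed to 52.2 to 89.4, 23.5 to 45.8 and 25.7 to 43.9, with Xcr1 and Clec4a4 at 0 throughout. Their 1 call in each comparison, Ccr9, was lower and is a homing receptor that T cells also carry. The lower sums in Hopx-high than in naive libraries followed Ccr9, whose mean was 43.6 in naive and 3.46 in Hopx-high libraries. Ly75, the other large part, stood at 22.9 and 23.3. Of the 5 tested markers, 3 had a difference above 0 between Hopx-high and naive libraries, against 33.2% of features. For 1, all Hopx-high libraries lay above all naive ones (13.2% of features), and for 1, Ccr9, all lay below. The gene that lay above passed the filter only through its Hopx-high libraries, so its lack of overlap is no separate result. Of 9 natural killer cell markers, 1 was tested, the granule protein gene Nkg7, which activated T cells also express. Nkg7 passed the filter on low values through its Hopx-high libraries, with at most 1.06 in a Hopx-low one. It was at 0 in all 3 naive libraries, 0.637 ± 0.562 in Hopx-low and 12.3 ± 1.94 in Hopx-high libraries (adjusted p = 3.5e-06 and 0.00034 against naive and Hopx-low), while Klra7 and Klra8 were at 0. Of 7 erythroid markers found, 5 were tested and 0 were called by limma. Between the Hopx groups 2 had an unadjusted p below 0.05 (13.3% of features), and 0 did in each comparison with naive. All 5 differences of Hopx-high libraries were above 0, both against naive (33.2% of features) and against Hopx-low (39.1%). Their medians were 0.36 and 0.92, against -0.29 and -0.10 over all features. For 2, all Hopx-high libraries lay above all Hopx-low ones (6.52% of features). The 7 erythroid markers summed to 51.3 to 144, 44.2 to 79.6 and 74.2 to 170 in naive, Hopx-low and Hopx-high libraries. Of 5 platelet markers the single tested one, Itga2b, was called lower in Hopx-high than in naive libraries (adjusted p = 0.043), a call lost without any single naive or Hopx-high library. Among the CD4 T-cell genes, the T-cell receptor complex gene Cd3g was called lower against naive in both Hopx groups, at mean levels of 342, 193 and 185 in naive, Hopx-low and Hopx-high libraries, and both calls were lost with some single libraries left out. Mast cell and basophil markers had no tested member, and the stromal list had 1, Pecam1, which was not called.

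**Figure D3:**
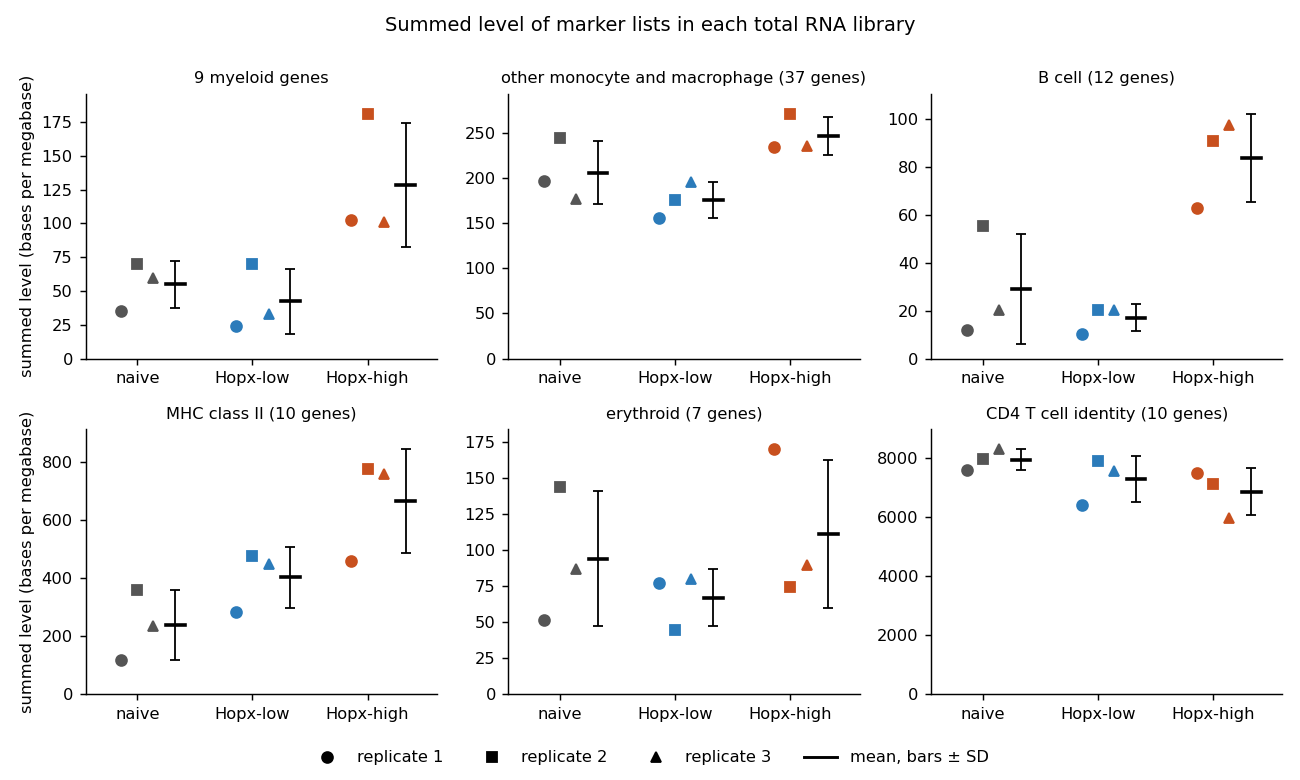
Summed level in each total RNA library (points; bases per megabase covered) for the 9 genes and lists of markers of other cells, by group, with mean and SD of 3 libraries. The 9 genes and the B-cell markers have all Hopx-high points above all others, while the CD4 T-cell genes have all Hopx-high points (5967 to 7470) below all naive points (7573 to 8285).

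The small RNA libraries gave a separate readout of a myeloid gene. Mir223 is a microRNA of granulocytes and monocytes, where PU.1 and C/EBP factors are known to drive it (chromosome X, 96242817 to 96242926, GRCm38.p6). The table gives 1 value for the gene and does not separate its arms, which are shown from RefSeq with the seed (bases 2 to 8) in capitals because the arms carry different seeds.
mmu-miR-223-5p, chrX:96242842-96242864, plus strand: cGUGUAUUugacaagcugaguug
mmu-miR-223-3p, chrX:96242884-96242905, plus strand: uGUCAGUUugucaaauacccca
The Mir223 level was 241, 78.5 and 176 in naive, 153, 212 and 183 in Hopx-low, and 362, 899 and 782 in Hopx-high libraries. Every Hopx-high library lay above the 6 others, as for 25.9% of the 510 tested small RNA features against naive and 23.3% against Hopx-low. The means were 165 ± 81.9, 183 ± 29.1 and 681 ± 282, and the Hopx-high mean was 4.12 times the naive and 3.72 times the Hopx-low mean. Mir223 was called higher against naive (2.08 ± 0.44, adjusted p = 0.0061), as were 20.8% of the features, and against Hopx-low (1.80 ± 0.44, adjusted p = 0.026), as were 10.8%. The call against naive was kept with any single library left out. That against Hopx-low was lost without any single Hopx-low library (adjusted p = 0.11, 0.063 and 0.11 for replicates 1 to 3) or without Hopx-high replicate 2 (0.058) or 3 (0.086). Hopx-low and naive libraries overlapped (0.28 ± 0.44, adjusted p = 0.77).

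The level of Mir223 and the summed level of the 9 genes were each highest in the library numbered Hopx-high replicate 2. The labels do not say that equal numbers mark the same RNA, and naive replicate 2, the lowest of the 9 in Mir223, was the highest naive library in the summed level of the 9 genes.

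**Figure D4:**
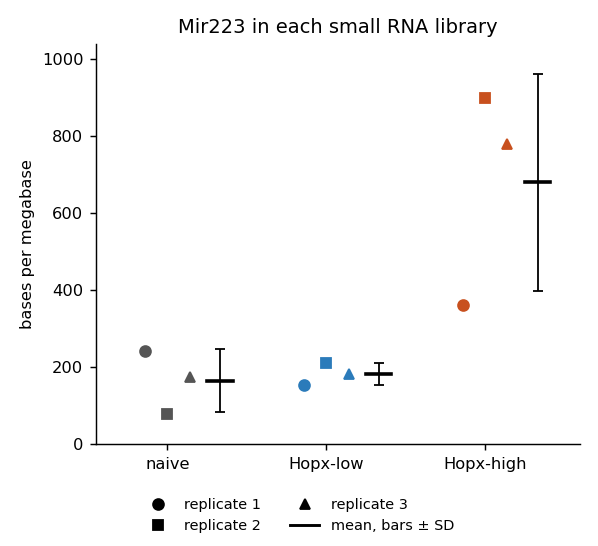
Mir223 level in each small RNA library (points; bases per megabase covered), by group, with the mean and SD of 3 libraries. The Hopx-high points, at 362, 782 and 899, lie above the 6 points of the other groups, of which the highest is 241.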

How the data were processed

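Per the labels' protocols, Trizol and mirVana purification was followed by ribosomal RNA depletion and barcoded Ion Torrent libraries. The submitters' processing notes name bedtools and the mm10 build. Not given in the sources used here are the aligner, annotation, strand and handling of multiply matching reads, and overlapping or antisense genes cannot be told apart.

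The authors deposited a signal value per feature and library. From the values, each signal is the aligned bases plus 1, scaled by the mean library total over the library's own total (whole within a tolerance of 1e-06 after unscaling). It was turned back to bases and divided by the megabases covered in the library. Reads were estimated from the median of values at or below 200 bases.

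Levels were taken to log2 with a pseudocount of 1. Features that reached a level of 1 in 3 or more of 9 libraries (11320 of 23219 in total RNA, 510 of 2220 in small RNA) were tested with limma 3.58.1 (lmFit, eBayes with trend and robust settings) in R 4.3.3. All 9 libraries of an assay shared an estimate of the spread, and p-values were adjusted by the Benjamini-Hochberg method over all tested features. The fit was tested on simulated coverage first. Python 3.11.15, pandas 2.3.3, numpy 2.4.6 and matplotlib 3.10.9 did the rest. Of the table's names, 23098 matched RefSeq symbols or synonyms of GRCm38.p6 (mm10), the source of positions and sequences. The Spi1 row is named Sfpi1.

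The genes and lists were chosen with earlier results of these data known. Named genes were the 9 genes, Mir223, up to 4 genes of each list with the highest mean and up to 3 called genes with the smallest adjusted p per comparison, and the 8 features closest to the summed level. Syk, Spi1, Lyz1, Csf1 and genes named as at or near 0 fall outside that rule and were chosen after their values were seen. Alternatives were other scalings, filters, pseudocounts and limma settings, the deposited scale, a replicate block, the 6 libraries compared, replicates 1 and 2 alone, and each library left out. Leaving out both Lars2-rich libraries was added after the data were seen. Values of some genes that the rule names are left out of the text.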

Additional observations from a re-analysis of the deposited data

How the results depend on the processing

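Of 711 recomputed values of 33 main results under 22 alternatives, 642 were the same. For a gene this meant the same direction and side of the threshold, and for a count of called features a value within a set factor of the main count. Most main results were uncalled differences that stayed uncalled. Of the others, 13 counts moved, 13 differences changed sign, 22 gained a call and 21 lost one. All lost calls were those of Csf1r and Mir223 against Hopx-low and Lyz2 against naive. The cause of the changes was not tested. Upper-quartile scaling moved the median difference of all features between Hopx-high and naive from -0.29 to -0.08, and quantile normalization to -0.11. Called features numbered 950 for Hopx-low against naive, but 614 without limma's trend and robust settings and 497 with replicates 1 and 2 alone (576 to 1169 with a library left out, 576 without naive replicate 1). They numbered 2666 for Hopx-high against naive and 1126 with replicates 1 and 2 alone (1710 to 3138; 1710 without Hopx-high replicate 3, 1754 without naive replicate 1). For Hopx-high against Hopx-low they numbered 242, but 143 on the deposited scale, 159 without trend and robust settings, 154 with a pseudocount of 0.1 and 71 with replicates 1 and 2 alone (127 to 278; 127 without Hopx-high replicate 3, 133 and 145 without Hopx-low replicates 3 and 2).

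Csf1r, Hopx-high against Hopx-low (2.64), lost its call on the deposited scale (4.80, adjusted p = 0.46), without trend and robust settings (2.64, adjusted p = 0.15), without a filter (2.64, 0.13), with a pseudocount of 0.1 (3.84, 0.32), with replicates 1 and 2 alone (2.95, 0.27) and without both Lars2-rich libraries (1.88, 0.14), and ranged from 1.72 to 3.41 with a library left out. Csf1r, Hopx-high against naive, gained a call with quantile normalization (1.73, adjusted p = 0.049), a pseudocount of 5 (1.14, 0.020), the 6 libraries compared (1.53, 0.020) and without both Lars2-rich libraries (1.69, 0.034), and ranged from 1.04 to 1.86. Lyz2, Hopx-high against naive, lost its call with replicates 1 and 2 alone (1.86, adjusted p = 0.099) and ranged from 1.44 to 2.42. C1qc, Hopx-high against naive, gained one with upper-quartile scaling (1.45, adjusted p = 0.015), quantile normalization (1.43, 0.013), totals without Lars2 (1.36, 0.031), a pseudocount of 5 (0.91, 0.033), the 6 libraries compared (1.25, 0.049) and without both Lars2-rich libraries (1.66, 0.0093), and ranged from 0.99 to 1.66; C1qb ranged from 0.70 to 1.68. C1qb, Hopx-high against Hopx-low, gained one with upper-quartile scaling (1.90, adjusted p = 0.048) and ranged from 1.29 to 2.38 (1.22 without both Lars2-rich libraries). Mir223, Hopx-high against Hopx-low, lost its call with upper-quartile scaling (1.53, adjusted p = 0.054) and without trend and robust settings (1.80, 0.066), and ranged from 1.55 to 2.20.

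Uncalled differences that changed sign were, for Hopx-low against naive, C1qb with replicates 1 and 2 alone (0.0609), C1qc with quantile normalization (0.0166) and without both Lars2-rich libraries (0.23; -0.41 to 0.23 with a library left out), Tyrobp without both (0.17; -0.72 to 0.17), Lyz2 (-0.0780 to 0.90) and Mir223 (-0.18 to 0.62). For Hopx-high they were Mpeg1 against naive (-1.03 to 0.10) and against Hopx-low without both Lars2-rich libraries (-0.12; 0.0961 to 1.23 with a single library left out), and Fcer1g against Hopx-low (-0.0799 to 0.84, and 0.88 without both).

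Equal replicate numbers were not taken to pair the samples, although Xist was covered in replicate 3 of each group: the labels name no shared animal, litter or day, and deviations of same-numbered libraries correlated at -0.13 to 0.19 (total RNA) and -0.33 to 0.0874 (small RNA). With the replicate number as a block, Csf1r (1.53, adjusted p = 0.021) and C1qc (1.25, adjusted p = 0.040) passed the threshold against naive, Lyz2 (1.52, adjusted p = 0.025) and C1qb (1.77, adjusted p = 0.049) passed it against Hopx-low, and Mir223 against Hopx-low did not (1.80, adjusted p = 0.086). Depth limits all 9 genes, most of all Fcer1g and Mpeg1, with at most about 11.3 and 10.4 reads in a library.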
